A study of Caenorhabditis elegans with 8 samples.

Results

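Of the 14396 transcripts listed for this series, 12925 were counted in both the damt-1 and the wild type worms of the generation labelled P0, and for these the response to antimycin A was compared between the genotypes. For every transcript the change on treatment in damt-1 was set against the change on treatment in wild type, as a difference of log2 fold changes. This difference, the genotype by treatment interaction, is positive where the transcript moved further up, or less far down, in damt-1 than in wild type. Of the 12925 transcripts, 12071 passed a filter on low counts and were tested.

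RNA was taken from the whole bodies of Caenorhabditis elegans of the Bristol strain at L4, the last larval stage, reared at 22 °C. The 4 groups were damt-1 worms treated with 1.92 µM antimycin A, untreated damt-1 worms, wild type worms treated with 1.92 µM antimycin A, and untreated wild type worms, with 2 libraries in each group and 8 in all. The drug was applied to the agar plates, and the descriptions date the start of treatment either to the egg or to the L1 larva. The nature of the damt-1 mutation is not given in the sources used here, and nothing says that the 2 libraries of a group came from separate cultures, so the p-values measure the spread between these libraries, which may be technical. Library totals ran from 3693633 to 4144585 counts. Levels are given per library as CPM, counts scaled to the TMM-adjusted size of the library, and a difference is called at an adjusted p under 0.05 in edgeR's quasi-likelihood test with Benjamini-Hochberg adjustment over all 12071 transcripts. Every adjusted p below comes from this test, and values after ± are standard errors of log2 differences.

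Antimycin A blocks complex III of the mitochondrial respiratory chain, which passes electrons from ubiquinol to cytochrome c. Worms meet such a block with nuclear transcription: mitochondrial chaperones and proteases of the mitochondrial unfolded protein response, enzymes of xenobiotic metabolism and genes of fat oxidation are among the known targets. DAMT-1 belongs to the methyltransferase-like family and has been linked to the methylation of adenine in worm DNA. The question put to these 4 groups is therefore whether worms labelled damt-1 answer the drug with the same genes as wild type worms.

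The transcript of damt-1 itself did not separate the genotype labels before treatment. It stood at 17.9 and 16.4 CPM in treated damt-1, 22.2 and 17.2 CPM in untreated damt-1, 28.2 and 23.8 CPM in treated wild type and 20.1 and 19.7 CPM in untreated wild type. The untreated groups overlapped, with a log2 difference of -0.02 ± 0.19 (adjusted p = 0.94) between untreated damt-1 and untreated wild type. Among treated worms it was lower in damt-1, by a log2 difference of -0.59 ± 0.18 (adjusted p = 0.014). Its own interaction did not pass the test, at -0.57 ± 0.26 (adjusted p = 0.13). A mutation can leave a transcript in place, so this check does not test the labels, and damt-1 stands throughout for the libraries labelled so.

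Many transcripts answered the drug differently in the genotypes, and most of those called in both moved in opposite directions. In treated against untreated damt-1, 957 transcripts rose (7.93%) and 839 fell (6.95%), and in treated against untreated wild type 1514 rose (12.5%) and 1111 fell (9.2%). The interaction was called for 2743 transcripts (22.7%), of which 1270 were higher (10.5%) and 1473 were lower (12.2%) in damt-1 than in wild type. At least a 2-fold difference was reached by 500 of the higher ones (4.14%) and 528 of the lower ones (4.37%). The median size of the called interactions was 0.77 on the log2 scale, and the median interaction over all transcripts tested was -0.03.

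Across the 12071 transcripts the log2 change in damt-1 and the log2 change in wild type had a Pearson correlation of -0.07, and among the 8088 transcripts with at least 10 CPM in all 4 groups it was -0.16. These are descriptions across transcripts, which are not independent replicates, and the 2 changes share no library. Of 940 transcripts called in both genotypes, 228 moved in the same direction and 712 (75.7%) moved in opposite directions. In the scatter of the 2 responses the called transcripts spread along the axes and into the quadrants of opposite change, and few lay far out along the diagonal.

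**Figure D1:**
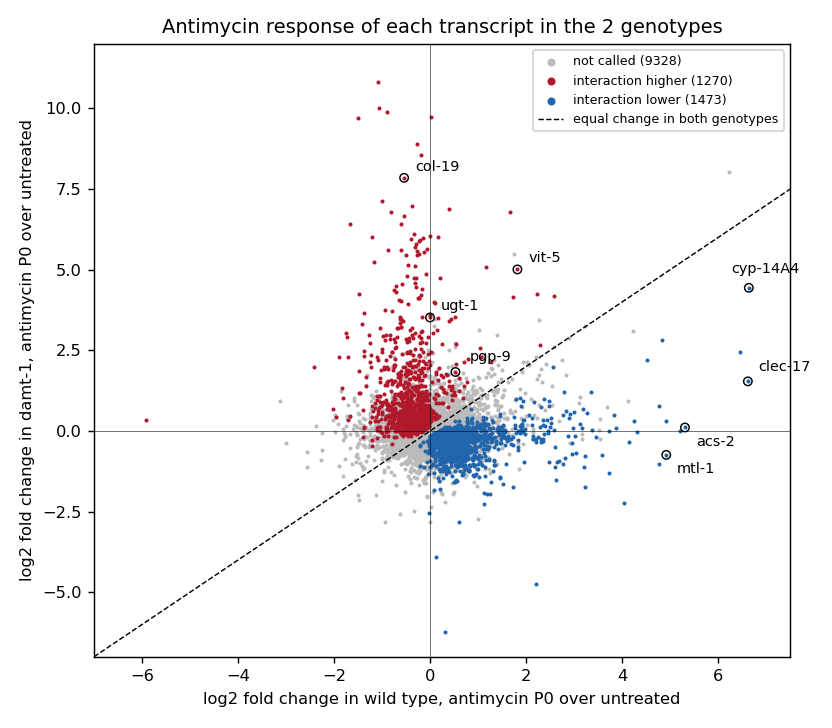
Log2 fold change of each of the 12071 transcripts on antimycin A in damt-1 (vertical axis) against that in wild type (horizontal axis). Red points are the 1270 transcripts with a called positive interaction, blue points the 1473 with a called negative one and grey points the 9328 others, and the dashed line marks equal change. Circled genes show col-19 and ugt-1 high on the damt-1 axis, acs-2 and mtl-1 far out on the wild type axis, and pgp-9 and vit-5 raised in both genotypes.

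The called interactions fell into classes by what each genotype did. The largest class, 612 transcripts (22.3% of the calls), rose in wild type and was not called in damt-1. A further 399 (14.5%) fell in wild type and were not called in damt-1. In the other genotype, 335 (12.2%) rose in damt-1 and 268 (9.77%) fell in damt-1 without a call in wild type. Opposite calls made up 712 more: 369 fell in damt-1 and rose in wild type, and 343 rose in damt-1 and fell in wild type. The same direction in both genotypes with unequal size was rare, with 77 risen in both and 5 fallen in both. The remaining 335 were called in neither genotype alone.

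Counts of calls depended on the tool and on single libraries. DESeq2's Wald test gave 706 higher and 790 lower interactions, 588 risen and 287 fallen transcripts in damt-1, and 787 risen and 380 fallen ones in wild type. The fallen transcripts of wild type numbered 733 and 727 without the first and the second treated wild type library. Those of damt-1 numbered 498 and 496 without either treated damt-1 library, and 479 and 477 without either untreated one.

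Read across genotypes instead of across treatments, the same interactions often meant that damt-1 and wild type differed before treatment and differed less, or no longer, after it. Untreated damt-1 and untreated wild type differed in 4783 transcripts (39.6%), and the treated groups in 4419 (36.6%). Of the 1270 higher interactions, 506 were lower in untreated damt-1 than in untreated wild type and not called between the treated groups. Another 335 were lower in damt-1 in both conditions, 143 were higher in treated and lower in untreated damt-1, 212 were higher in treated damt-1 alone, 38 were higher in both conditions and 36 were called in neither. Of the 1473 lower interactions, 453 were lower in treated damt-1 alone and 407 were higher in untreated damt-1 alone. Among the rest of them, 318 were higher in damt-1 in both conditions, 143 were lower in treated and higher in untreated damt-1, 119 were lower in both and 33 were called in neither.

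A first principal component of the 8 libraries carried 53.9% of the variance and placed treated damt-1 at -21.7 and -23.4, untreated damt-1 at -51.8 and -49.6, treated wild type at 31.4 and 33.1 and untreated wild type at 40.9 and 41.1. On this axis, which separated the genotypes, the treated damt-1 libraries lay nearer to wild type than the untreated ones did. The second component (16.2%) separated treated damt-1 (-33.5 and -33.8) from untreated damt-1 (22.4 and 22.2), and the third (13.7%) separated treated wild type (27.4 and 27) from untreated wild type (-28.1 and -23.9).

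Structural genes of the cuticle gave the largest positive interactions. The cuticle is the collagen coat that the worm builds anew at each moult, and each coat uses its own set of collagens. Of 127 cuticle collagens tested, 65 had a higher and 18 a lower interaction, against 10.5% and 12.2% of all transcripts. Their median was 0.47, against -0.03 over all transcripts. In damt-1, 65 of the 127 rose on treatment and 11 fell, where 7.93% and 6.95% of all transcripts did. In wild type 20 of the 127 rose and 44 fell, where the shares were 12.5% and 9.2%. Before treatment 74 of the 127 were lower and 25 higher in untreated damt-1 than in untreated wild type. The shares over all transcripts were 20.8% lower and 18.9% higher. In RNA of whole worms, fewer cells of a type and less RNA per cell cannot be told apart.

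The adult collagen col-19, a standard marker of the passage from larval to adult cuticle, had the largest interaction among the calls with at least 10 CPM in some group, more than 3 counts in each group and no overlap between the genotypes' library differences. Its level was 129 and 130 CPM in treated damt-1, 0.548 and 0.513 CPM in untreated damt-1, 171 and 163 CPM in treated wild type and 249 and 236 CPM in untreated wild type. Only untreated damt-1 stood apart, with 4 counts in its 2 libraries together, and in the other 3 groups the gene was abundant. The log2 change was 7.85 ± 0.20 in damt-1 and -0.54 ± 0.05 in wild type, and the interaction was 8.39 ± 0.21 (adjusted p = 2.9e-18). The adult collagens col-62 and col-7 were likewise absent or nearly so from untreated damt-1. A level of 30.1 and 24.4 CPM in treated damt-1, 0 and 0 CPM in untreated damt-1, 4.91 and 4.56 CPM in treated wild type and 4.77 and 4.52 CPM in untreated wild type was found for col-62. With 0 counts in untreated damt-1 and a floor of 3 counts over its 2 libraries, col-62 was at least 68.5-fold higher in treated damt-1. The level of col-7 was 19.4 and 17 CPM in treated damt-1, 0 and 0.256 CPM in untreated damt-1, 4.14 and 11.5 CPM in treated wild type and 0.794 and 4.04 CPM in untreated wild type, and the single count in untreated damt-1 put the ratio of treated to untreated damt-1 at 138 (95% counting interval 24.3 to 5.47e+03). Its interaction of 5.14 ± 1.22 (adjusted p = 0.0031) lost its call without the second untreated wild type library. Of the 6 adult collagens these 3 had a higher interaction and 1 a lower one, where 10.5% and 12.2% of all transcripts did. The lower one was bli-1, a collagen of the adult cuticle's struts, with -0.31 ± 0.06 (adjusted p = 0.00029). Untreated damt-1 was the lowest of the 4 groups for 3 of the 6 and the highest for 2. The level of bli-1 was 1226 and 1196 CPM in untreated damt-1, against 706 and 664 CPM in untreated wild type.

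Collagens of the larger family shared the col-19 pattern. For col-88 the values were 266 and 281 CPM in treated damt-1, 3.01 and 5.38 CPM in untreated damt-1, 342 and 322 CPM in treated wild type and 380 and 357 CPM in untreated wild type. The interaction was 6.15 ± 0.15 (adjusted p = 2.4e-18), made of a rise of 6.0 ± 0.13 in damt-1 and a change of -0.15 ± 0.05 in wild type. The corresponding values of col-139 were 231 and 240 CPM in treated damt-1, 5.75 and 3.33 CPM in untreated damt-1, 264 and 258 CPM in treated wild type and 332 and 314 CPM in untreated wild type, with an interaction of 6.0 ± 0.14 (adjusted p = 1.6e-18). Those of col-81 were 201 and 202 CPM in treated damt-1, 4.38 and 4.62 CPM in untreated damt-1, 200 and 203 CPM in treated wild type and 293 and 277 CPM in untreated wild type, with 5.98 ± 0.13 (adjusted p = 8e-19). In col-140 the interaction was 6.11 ± 0.16 (adjusted p = 1e-17). For all 4 untreated damt-1 was the low group, and the other 3 groups lay far above it. Collagens with 3 or fewer counts in untreated damt-1 included col-137, at 60.4 and 53.9 CPM in treated damt-1, 0 and 0 CPM in untreated damt-1, 37.8 and 41.1 CPM in treated wild type and 79.7 and 86.8 CPM in untreated wild type, which was at least 144-fold higher in treated than in untreated damt-1. Against 1 count in untreated damt-1 the ratios were 172 for col-119 (95% counting interval 30.6 to 6.85e+03) and 76.6 for col-152 (13.3 to 3.06e+03). Collagens share long stretches of sequence, and reads from close copies may have been split between them.

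Not all collagens followed. The collagens col-103, col-42 and col-176 rose in wild type and had negative interactions, of -1.48 ± 0.07 (adjusted p = 5.8e-13), -1.35 ± 0.07 (adjusted p = 1.1e-12) and -2.57 ± 0.09 (adjusted p = 1.7e-15). In col-103 the values were 346 and 377 CPM in treated damt-1, 358 and 355 CPM in untreated damt-1, 407 and 378 CPM in treated wild type and 138 and 139 CPM in untreated wild type, so that untreated wild type was the low group.

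The 6 furrow collagens, which form the ring-shaped furrows of the cuticle, went the same way as each other. Of these 5 had a called negative interaction and 0 a positive one, with a median of -1.09, where 12.2% and 10.5% of all transcripts did. In damt-1 4 of the 6 fell, with a median change of -0.24, and in wild type 5 rose, with a median of 0.83. The shares over all transcripts were 6.95% fallen in damt-1 and 12.5% risen in wild type. The furrow collagen dpy-8 stood at 406 and 437 CPM in treated damt-1, 501 and 490 CPM in untreated damt-1, 214 and 208 CPM in treated wild type and 111 and 117 CPM in untreated wild type, and dpy-7 at 302 and 318 CPM in treated damt-1, 371 and 352 CPM in untreated damt-1, 150 and 137 CPM in treated wild type and 78.6 and 80.9 CPM in untreated wild type. Their interactions were -1.12 ± 0.07 (adjusted p = 8.9e-11) and -1.06 ± 0.08 (adjusted p = 1.9e-09). The 6 genes were all higher in damt-1 in both conditions, by a median log2 difference of 1.23 in treated and 2.19 in untreated worms. Of all transcripts 15.5% were higher in damt-1 among treated and 18.9% among untreated worms.

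**Figure D2:**
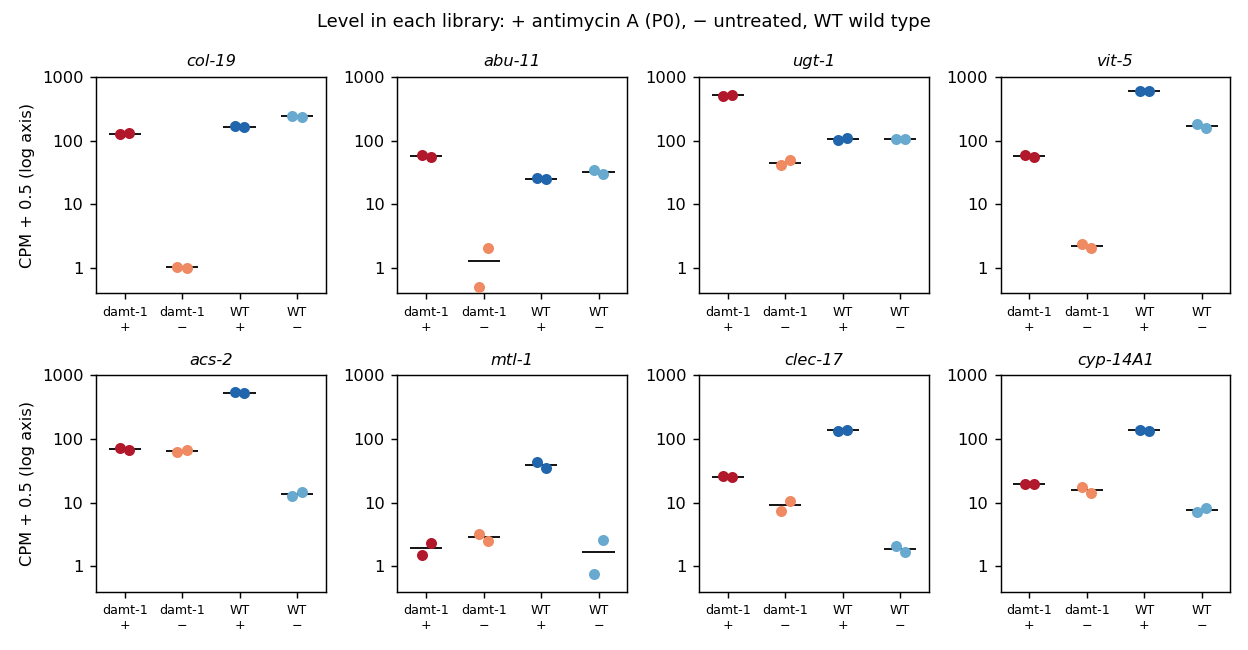
Level of 8 genes in each of the 8 libraries, as CPM + 0.5 on a logarithmic axis, with treated (+) and untreated (−) damt-1 left of treated and untreated wild type (WT). Points are libraries and bars their means. In the upper row untreated damt-1 is the low group, as for col-19 with 0.548 and 0.513 CPM, and in the lower row treated wild type is the high group, as for acs-2 with 547 and 529 CPM.

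The abu and pqn genes, which encode proteins rich in glutamine and asparagine, had called interactions mostly on the positive side. Of 41 tested, 17 had a higher and 3 a lower interaction, with a median of 0.29, against 10.5% higher and 12.2% lower over all transcripts. In damt-1 16 of the 41 rose and 1 fell, where 7.93% and 6.95% of all transcripts did. In wild type 5 of the 41 rose and 7 fell, where the shares were 12.5% and 9.2%. The level of abu-11 was 59.2 and 55.7 CPM in treated damt-1, 0 and 1.54 CPM in untreated damt-1, 25.1 and 24.5 CPM in treated wild type and 33.6 and 29 CPM in untreated wild type, an interaction of 6.45 ± 0.40 (adjusted p = 2.8e-11). Similar values held for abu-8, with 6.11 ± 0.48 (adjusted p = 1.8e-09), and pqn-54, with 6.13 ± 0.44 (adjusted p = 3.5e-10). At a higher level, abu-14 reached 164 and 163 CPM in treated damt-1, 46.8 and 38.7 CPM in untreated damt-1, 213 and 213 CPM in treated wild type and 224 and 216 CPM in untreated wild type, with 1.98 ± 0.09 (adjusted p = 2.1e-13). The near-identical copies in this family make the split of reads between members uncertain. Among calls with at least 10 CPM in some group, more than 3 counts in each group and no overlap between the genotypes' differences, idpc-3 and idpc-6 were also among the 10 largest positive interactions, with 5.87 ± 0.37 (adjusted p = 4e-11) and 5.73 ± 0.56 (adjusted p = 4.6e-08). The gene idpc-4 had 2 counts in untreated damt-1 and a ratio of treated to untreated damt-1 of 141 (95% counting interval 38.5 to 1.17e+03).

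Hedgehog-related ligands and patched-related receptors are a family enlarged in nematodes and tied to the epidermis and moulting. Among 55 tested, 20 had a higher and 10 a lower interaction, with a median of 0.18, against 10.5% higher and 12.2% lower over all transcripts. The ground-like ligand gene grd-6 stood at 185 and 190 CPM in treated damt-1, 23.8 and 24.1 CPM in untreated damt-1, 171 and 156 CPM in treated wild type and 288 and 294 CPM in untreated wild type. Its log2 change was 2.97 ± 0.09 in damt-1 and -0.83 ± 0.05 in wild type, an interaction of 3.80 ± 0.10 (adjusted p = 5.9e-18). The warthog gene wrt-8 had 131 and 123 CPM in treated damt-1, 18.4 and 16.7 CPM in untreated damt-1, 211 and 211 CPM in treated wild type and 304 and 295 CPM in untreated wild type, and an interaction of 3.37 ± 0.11 (adjusted p = 1.6e-16). The patched-related ptr-23 had an interaction of 1.70 ± 0.07 (adjusted p = 6.5e-15) and grd-14 one of 1.99 ± 0.10 (adjusted p = 4.7e-13). All 4 genes rose in damt-1 and fell in wild type.

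Cuticlins and moulting genes had called interactions in both directions, where 10.5% of all transcripts were higher and 12.2% lower. Of 28 cuticlins and zona pellucida proteins, 9 had a higher and 5 a lower interaction, with a median of -0.16. The cuticlin cut-4 stood at 136 and 140 CPM in treated damt-1, 52.9 and 45.4 CPM in untreated damt-1, 201 and 201 CPM in treated wild type and 283 and 274 CPM in untreated wild type, with 1.96 ± 0.09 (adjusted p = 1.6e-13), while noah-2, an apical matrix protein, had -0.74 ± 0.07 (adjusted p = 9.5e-09). Of 15 moulting genes 2 were higher and 7 lower, with a median of -0.15. The peroxidase gene mlt-7 and the astacin protease gene nas-36, both needed in moulting, were the higher ones, with 1.26 ± 0.08 (adjusted p = 2.6e-11) and 1.18 ± 0.13 (adjusted p = 3.1e-07). The hedgehog-related qua-1 had -0.39 ± 0.05 (adjusted p = 3.5e-06).

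Since cuticle genes cycle with the moults, markers of stage stand beside these results. Summed over the 6 furrow collagens, the level was 1355 and 1442 CPM in treated damt-1, 1688 and 1620 CPM in untreated damt-1, 626.4 and 614.5 CPM in treated wild type and 365.1 and 368.9 CPM in untreated wild type. Summed over 30 major sperm protein genes, which are expressed in developing sperm and share near-identical copies, it was 875.6 and 904.1 CPM in treated damt-1, 809.1 and 827.7 CPM in untreated damt-1, 1241 and 1218 CPM in treated wild type and 1236 and 1261 CPM in untreated wild type. Of the 30, 0 had a called interaction in edgeR's test and 0 in DESeq2's, with 1 at an unadjusted p under 0.05. In edgeR's test interactions were called for 22.7% of all transcripts. However, 24 of the 30 were lower in treated damt-1 than in treated wild type, against 21.1% of all transcripts. Among untreated worms 28 of the 30 were lower in damt-1 than in wild type, against 20.8% of all transcripts. The sum over the 15 moulting genes was 5593 and 5638 CPM in treated damt-1, 6049 and 6016 CPM in untreated damt-1, 4801 and 4735 CPM in treated wild type and 4553 and 4510 CPM in untreated wild type. Whether the 4 groups were collected at the same point of L4 is not recorded, and a difference in stage and a difference in response cannot be told apart in these libraries.

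Some yolk protein genes were also low in untreated damt-1. Vitellogenins are made in the intestine of the adult hermaphrodite and taken up by oocytes. Of 5 tested, vit-3, vit-4 and vit-5 had higher interactions and vit-1 a lower one, against 10.5% higher and 12.2% lower over all transcripts. The level of vit-5 was 58.4 and 54.4 CPM in treated damt-1, 1.92 and 1.54 CPM in untreated damt-1, 609 and 598 CPM in treated wild type and 182 and 161 CPM in untreated wild type. It rose in both genotypes, by 5.01 ± 0.23 in damt-1 and 1.82 ± 0.05 in wild type, and the interaction was 3.19 ± 0.28 (adjusted p = 1e-08). For vit-4 the values were 35.3 and 26.8 CPM in treated damt-1, 5.2 and 6.67 CPM in untreated damt-1, 236 and 229 CPM in treated wild type and 240 and 242 CPM in untreated wild type, with 2.43 ± 0.20 (adjusted p = 4.3e-09). For vit-3 the interaction was 1.23 ± 0.12 (adjusted p = 3.5e-08). The level of vit-1 was 305 and 307 CPM in treated damt-1, 538 and 567 CPM in untreated damt-1, 542 and 540 CPM in treated wild type and 363 and 357 CPM in untreated wild type, and its interaction was -1.44 ± 0.06 (adjusted p = 1.7e-14). At 2.24 and 2.92 CPM in treated damt-1, 1.37 and 1.28 CPM in untreated damt-1, 6.98 and 5.77 CPM in treated wild type and 4.77 and 4.52 CPM in untreated wild type, vit-2 was at a low level and its interaction, 0.49 ± 0.71 (adjusted p = 0.7), did not pass the test. Even after treatment vit-3, vit-4 and vit-5 remained far lower in damt-1 than in wild type, by log2 differences of -2.87 ± 0.06, -2.89 ± 0.08 and -3.42 ± 0.06. These 3 genes are close copies, and the split of reads between them is uncertain.

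Enzymes of detoxification had interactions in both directions. Of 54 cytochromes P450, which oxidise foreign and internal compounds, 14 had a higher and 15 a lower interaction, with a median of -0.16. In damt-1 19 of them rose and 8 fell, where 7.93% and 6.95% of all transcripts did. In wild type 26 of the 54 rose and 7 fell, where the shares were 12.5% and 9.2%. Of 49 UDP-glucuronosyltransferases, which attach sugars to such compounds, 16 were higher and 10 lower. Of 34 glutathione S-transferases 5 were higher and 3 lower. Over all transcripts the shares were 10.5% higher and 12.2% lower.

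On the damt-1 side ugt-1 was the clearest member. Its level was 506 and 527 CPM in treated damt-1, 40.8 and 49 CPM in untreated damt-1, 103 and 111 CPM in treated wild type and 107 and 107 CPM in untreated wild type. Treated damt-1 was the high group, the wild type groups overlapped, and untreated damt-1 was the low group. The change was 3.52 ± 0.06 in damt-1 and 0.00 ± 0.07 in wild type, an interaction of 3.52 ± 0.10 (adjusted p = 3.4e-17). The level of gst-33 was 86 and 82.2 CPM in treated damt-1, 15.6 and 14.9 CPM in untreated damt-1, 23.8 and 25 CPM in treated wild type and 24.9 and 23.3 CPM in untreated wild type, with 2.44 ± 0.20 (adjusted p = 2.3e-09). The cytochrome P450 gene cyp-33C5 was measured at 72.8 and 76.7 CPM in treated damt-1, 3.29 and 4.1 CPM in untreated damt-1, 13.4 and 16.3 CPM in treated wild type and 25.2 and 23.8 CPM in untreated wild type, with 5.03 ± 0.27 (adjusted p = 1.8e-12). In cyp-25A2 the interaction was 1.07 ± 0.07 (adjusted p = 3.7e-11), and here untreated damt-1 was not the low group, with 307 and 296 CPM against 286 and 266 CPM in untreated wild type. The drug pump gene pgp-9, a P-glycoprotein, rose in both genotypes and further in damt-1. It stood at 1379 and 1403 CPM in treated damt-1, 374 and 408 CPM in untreated damt-1, 796 and 745 CPM in treated wild type and 539 and 532 CPM in untreated wild type, an interaction of 1.3 ± 0.06 (adjusted p = 2.3e-13). In mrp-2, another ABC transporter, the interaction was 0.94 ± 0.09 (adjusted p = 5.5e-08).

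Other members rose further in wild type, and some of them were not called in damt-1. The level of cyp-14A1 was 18.9 and 19.4 CPM in treated damt-1, 17.3 and 13.6 CPM in untreated damt-1, 140 and 136 CPM in treated wild type and 6.62 and 7.85 CPM in untreated wild type. It rose by 4.24 ± 0.13 in wild type and its change in damt-1, 0.31 ± 0.17 (adjusted p = 0.26), did not pass the test. The interaction was -3.92 ± 0.24 (adjusted p = 2.8e-11). The related cyp-14A4 rose in both genotypes but less in damt-1. It stood at 67.9 and 71.6 CPM in treated damt-1, 3.01 and 3.33 CPM in untreated damt-1, 302 and 302 CPM in treated wild type and 1.85 and 4.04 CPM in untreated wild type, with changes of 4.44 ± 0.18 in damt-1 and 6.64 ± 0.12 in wild type and an interaction of -2.19 ± 0.42 (adjusted p = 0.00037). In gst-14 the values were 22.9 and 22.3 CPM in treated damt-1, 4.11 and 4.1 CPM in untreated damt-1, 49.7 and 43.7 CPM in treated wild type and 0.265 and 0.714 CPM in untreated wild type, and the interaction -4.0 ± 0.57 (adjusted p = 1e-05). The glucuronosyltransferase genes ugt-13 and ugt-19 had interactions of -2.29 ± 0.20 (adjusted p = 6.6e-09) and -1.02 ± 0.10 (adjusted p = 7.4e-08). The widely used stress reporter gene gst-4 moved little, and in opposite directions. With 108 and 113 CPM in treated damt-1, 129 and 135 CPM in untreated damt-1, 164 and 148 CPM in treated wild type and 140 and 131 CPM in untreated wild type, it fell by 0.26 on the log2 scale in damt-1 and rose by 0.20 ± 0.06 in wild type, an interaction of -0.46 ± 0.09 (adjusted p = 0.00056).

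A fat oxidation gene answered the drug in wild type alone. The gene acs-2 encodes an acyl-CoA synthetase that feeds fatty acids into mitochondrial oxidation and is raised on fasting. It stood at 73.1 and 66.6 CPM in treated damt-1, 63.3 and 66.4 CPM in untreated damt-1, 547 and 529 CPM in treated wild type and 12.4 and 14.5 CPM in untreated wild type. In wild type it rose by 5.31 ± 0.07, and in damt-1 the change was 0.11 ± 0.08 (adjusted p = 0.49). The interaction was -5.20 ± 0.13 (adjusted p = 5.9e-18). Untreated damt-1 already lay above untreated wild type, by 2.26 ± 0.12, and treated damt-1 below treated wild type, by a log2 difference of -2.94 ± 0.05. Genes of fatty acid activation and oxidation, acs-2 among them, went both ways, with 9 higher and 11 lower among 55 and a median of -0.01. Over all transcripts 10.5% were higher and 12.2% lower. The hydroxyacyl-CoA dehydrogenase gene hacd-1 had -1.35 ± 0.08 (adjusted p = 2.8e-11), and the carnitine palmitoyltransferase gene cpt-4 had 1.18 ± 0.07 (adjusted p = 1.1e-11). Of 21 genes of fatty acid synthesis and desaturation, 2 were higher and 7 lower. The ATP citrate lyase gene acly-2 stood at 216 and 208 CPM in treated damt-1, 272 and 270 CPM in untreated damt-1, 217 and 245 CPM in treated wild type and 125 and 127 CPM in untreated wild type, with -1.22 ± 0.08 (adjusted p = 6.9e-11), and fasn-1, the fatty acid synthase, had -0.40 ± 0.05 (adjusted p = 1.4e-06).

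The genes mtl-1, hrg-2, ftn-1 and sod-3 rose in wild type and were not called in damt-1. The metallothionein gene mtl-1 stood at 0.994 and 1.86 CPM in treated damt-1, 2.74 and 2.05 CPM in untreated damt-1, 42.9 and 34.6 CPM in treated wild type and 0.265 and 2.14 CPM in untreated wild type. Treated wild type was the high group. The other 3 groups lay at low levels, where untreated wild type overlapped each damt-1 group. The interaction was -5.66 ± 0.79 (adjusted p = 8.4e-06). For hrg-2, a haem-responsive gene, the values were 3.98 and 3.71 CPM in treated damt-1, 3.29 and 4.36 CPM in untreated damt-1, 21.2 and 27.4 CPM in treated wild type and 0.53 and 0.714 CPM in untreated wild type, with -5.21 ± 0.63 (adjusted p = 1.4e-06). The ferritin gene ftn-1 stood at 24.9 and 23.3 CPM in treated damt-1, 35.9 and 27.4 CPM in untreated damt-1, 49.1 and 50.2 CPM in treated wild type and 14.8 and 16.2 CPM in untreated wild type, with -2.06 ± 0.22 (adjusted p = 2e-07). The mitochondrial superoxide dismutase gene sod-3 stood at 16.2 and 13.3 CPM in treated damt-1, 18.6 and 12.1 CPM in untreated damt-1, 29.7 and 26.4 CPM in treated wild type and 8.47 and 6.9 CPM in untreated wild type. It rose by 1.87 ± 0.24 in wild type and had a change of -0.05 ± 0.23 (adjusted p = 0.93) in damt-1, an interaction of -1.92 ± 0.34 (adjusted p = 0.00015). Metallothionein, ferritin and superoxide dismutase genes are known targets of the transcription factor DAF-16. Of 15 such targets 1 had a higher and 5 a lower interaction, the higher being nnt-1, a nicotinamide nucleotide transhydrogenase, with 0.85 ± 0.10 (adjusted p = 8.4e-07). Of 14 genes of hypoxia and hydrogen sulfide handling 6 were lower and 0 higher, with a median of -0.42. For both lists, the shares over all transcripts were 10.5% higher and 12.2% lower. The receptor gene nhr-57, a hypoxia reporter, had -0.76 ± 0.16 (adjusted p = 0.00098).

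C-type lectin domain proteins are secreted proteins often induced by pathogens. Of 96 tested, 9 had a higher and 28 a lower interaction, with a median of -0.24, against 10.5% higher and 12.2% lower over all transcripts. In damt-1 15 of the 96 rose and 22 fell, where 7.93% and 6.95% of all transcripts did. In wild type 26 of the 96 rose and 7 fell, where the shares were 12.5% and 9.2%. The gene clec-17 stood at 25.4 and 24.9 CPM in treated damt-1, 6.85 and 10.3 CPM in untreated damt-1, 136 and 141 CPM in treated wild type and 1.59 and 1.19 CPM in untreated wild type. It rose in both genotypes, by 1.54 ± 0.19 in damt-1 and 6.62 ± 0.19 in wild type, an interaction of -5.08 ± 0.37 (adjusted p = 4.4e-10). In clec-4 the interaction was -2.40 ± 0.16 (adjusted p = 7.6e-11) and in clec-47 -3.64 ± 0.20 (adjusted p = 4.1e-12). The levels of clec-229 were 28.1 and 25.5 CPM in treated damt-1, 0.822 and 1.03 CPM in untreated damt-1, 31.8 and 38 CPM in treated wild type and 49 and 49 CPM in untreated wild type, a positive interaction of 5.29 ± 0.35 (adjusted p = 7.7e-11), with untreated damt-1 again the low group. Of 15 pals genes, a family tied to the response to intracellular pathogens, 2 were higher and 2 lower (0 and 1 in DESeq2), and pals-6 had -3.97 ± 0.84 (adjusted p = 0.0011). By the same limits, the 10 largest negative interactions included drd-50 with -5.03 ± 0.64, cyp-13A5 with -4.60 ± 0.56, K03D3.2 with -4.49 ± 0.51 and F28H6.8 with -4.36 ± 1.07, all risen in wild type and not called in damt-1. Those of pals-6 and F28H6.8, which had 10 and 7 counts in untreated damt-1, lost their calls without its second library.

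Genes of the mitochondrial unfolded protein response rose slightly in wild type, and in damt-1 0 were called. Of its 13 genes tested, 6 had a lower and 0 a higher interaction, with a median of -0.21, against 12.2% lower and 10.5% higher over all transcripts. In wild type 7 rose and 0 fell, with a median change of 0.27, where 12.5% of all transcripts rose and 9.2% fell. In damt-1 0 of the 13 rose and 0 fell in edgeR's test, where 14.9% of all transcripts were called. DESeq2 called 0 of the 13 in damt-1, 1 gene had an unadjusted p under 0.05 and the median was -0.02. The AAA protease gene spg-7 stood at 463 and 462 CPM in treated damt-1, 434 and 448 CPM in untreated damt-1, 484 and 466 CPM in treated wild type and 374 and 372 CPM in untreated wild type, with -0.28 ± 0.06 (adjusted p = 0.00084). The Lon protease gene lonp-1 had -0.24 ± 0.06 (adjusted p = 0.0029), the import channel gene timm-23 -0.36 ± 0.08 (adjusted p = 0.0014) and the transcription factor gene zip-3 -0.35 ± 0.08 (adjusted p = 0.0014). The mitochondrial chaperone gene hsp-6, the usual reporter of this response, stood at 720 and 742 CPM in treated damt-1, 732 and 709 CPM in untreated damt-1, 765 and 733 CPM in treated wild type and 686 and 644 CPM in untreated wild type. It rose in wild type by 0.17 ± 0.04, but its interaction of -0.15 ± 0.06 (adjusted p = 0.06) did not pass the test. The chaperonin gene hsp-60 had -0.21 ± 0.10 (adjusted p = 0.15), which did not pass either. The gene hsp-6 passed without the first untreated wild type library, with library size alone and with a filter of 10 CPM in 2 libraries. The gene zip-3 lost its call in DESeq2, and lonp-1 with scaling factors from transcripts under 0.2 counts per nucleotide. Untreated damt-1 was already higher than untreated wild type in 9 of the 13 genes, with 0 lower. The shares over all transcripts were 18.9% higher and 20.8% lower. DESeq2 called 3 of the 13 interactions.

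In genes of the respiratory chain itself the interactions called in edgeR's test were lower. Of all transcripts 10.5% were called higher and 12.2% lower. Lower interactions were called for 1 of 14 complex I genes, 1 of 5 of complex II, 1 of 7 of complex III and cytochrome c, 2 of 16 of complex IV and 2 of 10 of ATP synthase, and higher ones for 0 in each list. The list medians were, in that order, -0.07, -0.07, -0.09, -0.04 and -0.05, close to the -0.03 over all transcripts. The complex II flavoprotein has 2 genes in the worm. Of these sdha-2 stood at 139 and 119 CPM in treated damt-1, 163 and 167 CPM in untreated damt-1, 250 and 225 CPM in treated wild type and 168 and 171 CPM in untreated wild type, with -0.84 ± 0.09 (adjusted p = 2.7e-07), while sdha-1 had -0.07 ± 0.06 (adjusted p = 0.42). In complex I nduf-2.2 had -0.68 ± 0.10 (adjusted p = 1.6e-05), in complex III ucr-2.3 had -0.89 ± 0.09 (adjusted p = 6.1e-08), and in ATP synthase asb-1 had -0.31 ± 0.07 (adjusted p = 0.002). The assembly factor gene cox-15 had -0.40 ± 0.07 (adjusted p = 0.00011). DESeq2 did not call asb-1. Of 72 mitochondrial ribosomal protein genes 4 were lower and 0 higher, and 0 were called by DESeq2.

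Many germ line genes fell in damt-1 and rose in wild type. Of 20 transcripts of P granule and germ line genes, 11 had a lower and 1 a higher interaction, with a median of -0.77. In damt-1 7 fell and 1 rose, with a median change of -0.20, and in wild type 12 rose and 1 fell, with a median of 0.46. Of all transcripts 10.5% had a higher and 12.2% a lower interaction. In damt-1 6.95% of all transcripts fell and 7.93% rose, and in wild type 12.5% rose and 9.2% fell. The higher one was 1 of 3 transcripts counted for gld-2. The helicase gene glh-1, a Vasa homologue of the P granules, stood at 287 and 286 CPM in treated damt-1, 364 and 369 CPM in untreated damt-1, 524 and 531 CPM in treated wild type and 440 and 418 CPM in untreated wild type. The groups did not overlap, with treated damt-1 lowest and treated wild type highest. Its changes were -0.36 ± 0.04 in damt-1 and 0.30 ± 0.04 in wild type, an interaction of -0.66 ± 0.06 (adjusted p = 1.6e-08). Another Vasa-like helicase gene, glh-4, stood at 67.9 and 67.6 CPM in treated damt-1, 106 and 107 CPM in untreated damt-1, 162 and 187 CPM in treated wild type and 103 and 110 CPM in untreated wild type, with -1.37 ± 0.11 (adjusted p = 1.4e-09). The P granule gene pgl-2 had -1.54 ± 0.17 (adjusted p = 2.1e-07) and glp-1, the Notch receptor of germ line stem cells, -0.81 ± 0.10 (adjusted p = 1.6e-06).

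Meiotic chromosome genes, which pair and hold homologous chromosomes, were called in a single direction. Of 19 tested, 13 had a lower and 0 a higher interaction, with a median of -0.92, against 12.2% lower and 10.5% higher over all transcripts. In damt-1 9 fell and 0 rose, with a median of -0.48, where 6.95% of all transcripts fell and 7.93% rose. In wild type 10 of the 19 rose and 0 fell, with a median of 0.33, where the shares were 12.5% and 9.2%. Between untreated worms of the genotypes 1 gene was lower and 0 were higher in damt-1, with a median difference of -0.01. Of all transcripts 20.8% were lower and 18.9% higher there. After treatment 18 of the 19 were lower in treated damt-1 than in treated wild type, with a median difference of -1.07, against 21.1% of all transcripts. The chromosome axis gene htp-3 stood at 49.7 and 47 CPM in treated damt-1, 86 and 76.4 CPM in untreated damt-1, 99.6 and 103 CPM in treated wild type and 83.7 and 67.8 CPM in untreated wild type, with -1.17 ± 0.13 (adjusted p = 5.5e-07). For the synaptonemal complex genes syp-6, syp-4 and syp-1 the interactions were -1.44 ± 0.17 (adjusted p = 8.6e-07), -1.25 ± 0.17 (adjusted p = 5.7e-06) and -1.19 ± 0.17 (adjusted p = 1.1e-05). In syp-6 the untreated groups overlapped, at 63.5 and 54.4 CPM in damt-1 and 50.6 and 66.1 CPM in wild type.

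Argonautes are the proteins that carry small RNAs. Of 17 tested, 7 had a lower and 0 a higher interaction, with a median of -0.36, against 12.2% lower and 10.5% higher over all transcripts. The Piwi gene prg-1, which carries piRNAs in the germ line, stood at 198 and 194 CPM in treated damt-1, 214 and 230 CPM in untreated damt-1, 332 and 322 CPM in treated wild type and 210 and 231 CPM in untreated wild type, with -0.75 ± 0.08 (adjusted p = 7.8e-08). The nuclear Argonaute gene hrde-1, known for inherited silencing, stood at 136 and 126 CPM in treated damt-1, 187 and 184 CPM in untreated damt-1, 269 and 263 CPM in treated wild type and 191 and 188 CPM in untreated wild type, with -0.99 ± 0.07 (adjusted p = 5.7e-10). Interactions of wago-1 and ppw-2 were -0.90 ± 0.06 (adjusted p = 1.9e-10) and -0.97 ± 0.07 (adjusted p = 6e-10). All 4 fell in damt-1 and rose in wild type, and the untreated groups of hrde-1 and wago-1 did not differ past the test (adjusted p = 0.7 and 0.97).

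**Figure D3:**
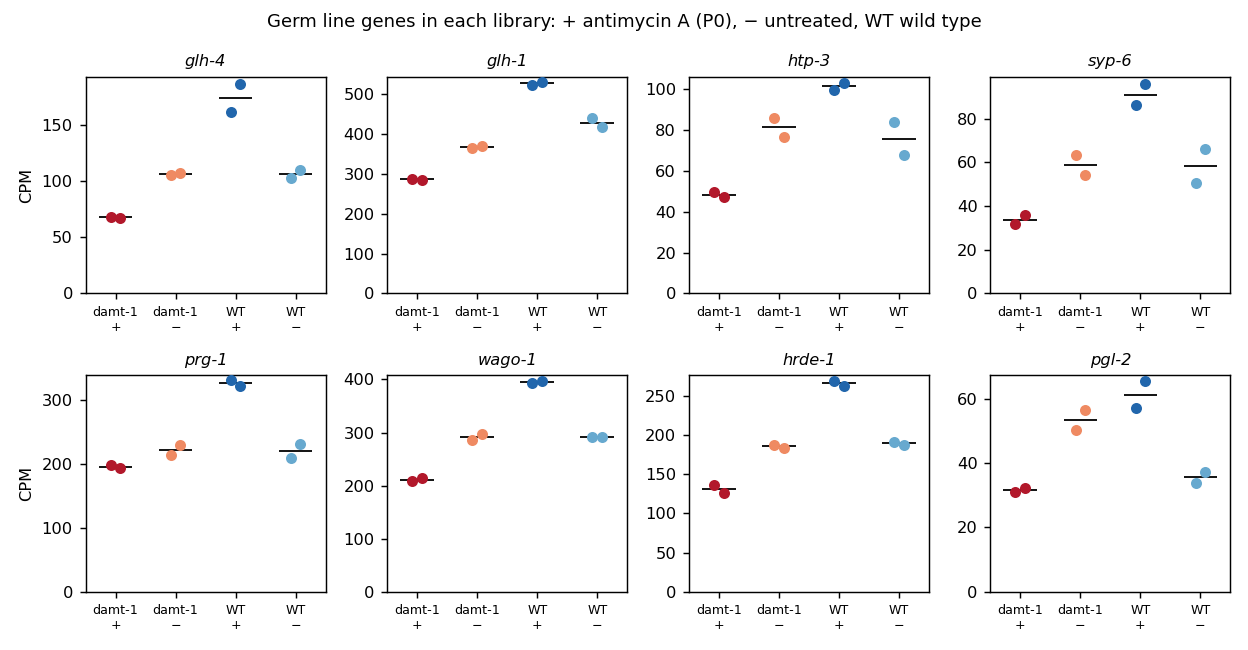
Level in CPM of 8 germ line, meiotic and Argonaute genes in each of the 8 libraries, with treated (+) and untreated (−) damt-1 left of treated and untreated wild type (WT). Points are libraries and bars their means. In all 8 panels treated damt-1 has the lowest mean and treated wild type the highest, as for hrde-1 with 136 and 126 CPM in treated damt-1 and 269 and 263 CPM in treated wild type.

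Oocyte and eggshell genes did not follow the earlier germ line. Of 17 tested, 3 had a higher and 3 a lower interaction, with a median of -0.30, against 10.5% higher and 12.2% lower over all transcripts. None fell in either genotype: 7 rose in damt-1 and 11 rose in wild type. Of all transcripts 6.95% fell and 7.93% rose in damt-1, and 9.2% fell and 12.5% rose in wild type. The eggshell gene perm-4 stood at 35.1 and 31.6 CPM in treated damt-1, 8.49 and 10 CPM in untreated damt-1, 85.3 and 88.4 CPM in treated wild type and 72.8 and 85.2 CPM in untreated wild type, with 1.71 ± 0.20 (adjusted p = 7.4e-07), perm-2 had 1.31 ± 0.21 (adjusted p = 3.8e-05) and the proteoglycan gene cpg-1 1.04 ± 0.27 (adjusted p = 0.0071). The chitin synthase gene chs-1 had -0.79 ± 0.21 (adjusted p = 0.0064). The call of cpg-1 was lost without the first untreated damt-1 library, and that of chs-1 without the second and in DESeq2. Of 48 other sperm genes 7 were lower and 0 higher (1 and 0 in DESeq2), and spe-4, a presenilin of spermatocytes, had -0.89 ± 0.14 (adjusted p = 3.9e-05).

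Summed over the list, meiotic genes gave 567.1 and 552.1 CPM in treated damt-1, 777.4 and 776.2 CPM in untreated damt-1, 998.3 and 1059 CPM in treated wild type and 786.9 and 788.2 CPM in untreated wild type. Oocyte and eggshell genes gave 482.8 and 436.9 CPM in treated damt-1, 326 and 340.5 CPM in untreated damt-1, 1044 and 1087 CPM in treated wild type and 704.8 and 773.7 CPM in untreated wild type. The groups did not overlap in the oocyte sums, where damt-1 was lower in both conditions. In the meiotic sums the untreated groups lay close together.

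Markers of other tissues are given against 10.5% higher and 12.2% lower over all transcripts. Of 12 body wall muscle markers 0 had a called interaction in edgeR's test, 0 in DESeq2's and 0 an unadjusted p under 0.05, and the gene myo-3, a muscle myosin, had 0.05 ± 0.05 (adjusted p = 0.5). Their summed level was 6246 and 6518 CPM in treated damt-1, 6630 and 6394 CPM in untreated damt-1, 5894 and 5578 CPM in treated wild type and 6128 and 5712 CPM in untreated wild type. Of 15 intestinal markers 1 was higher and 2 lower, and of 10 pharyngeal markers 1 was higher, the pharyngeal myosin gene myo-2, with 1.13 ± 0.14 (adjusted p = 1.4e-06). Of 10 neuronal markers 3 were higher and 0 lower (1 and 0 in DESeq2). Among them ida-1, a gene of dense core vesicles, had 0.32 ± 0.06 (adjusted p = 0.00018). Of 109 neuropeptide and insulin-like genes 11 were higher and 1 lower (3 and 0 in DESeq2), with a median of 0.16. In wild type 13 of the 109 fell and 0 rose, where 9.2% of all transcripts fell and 12.5% rose. The epidermal peptide gene nlp-34 stood at 18.1 and 16.2 CPM in treated damt-1, 7.12 and 8.72 CPM in untreated damt-1, 19.9 and 22.3 CPM in treated wild type and 32.3 and 30 CPM in untreated wild type, with 1.67 ± 0.28 (adjusted p = 8.9e-05).

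**Figure D4:**
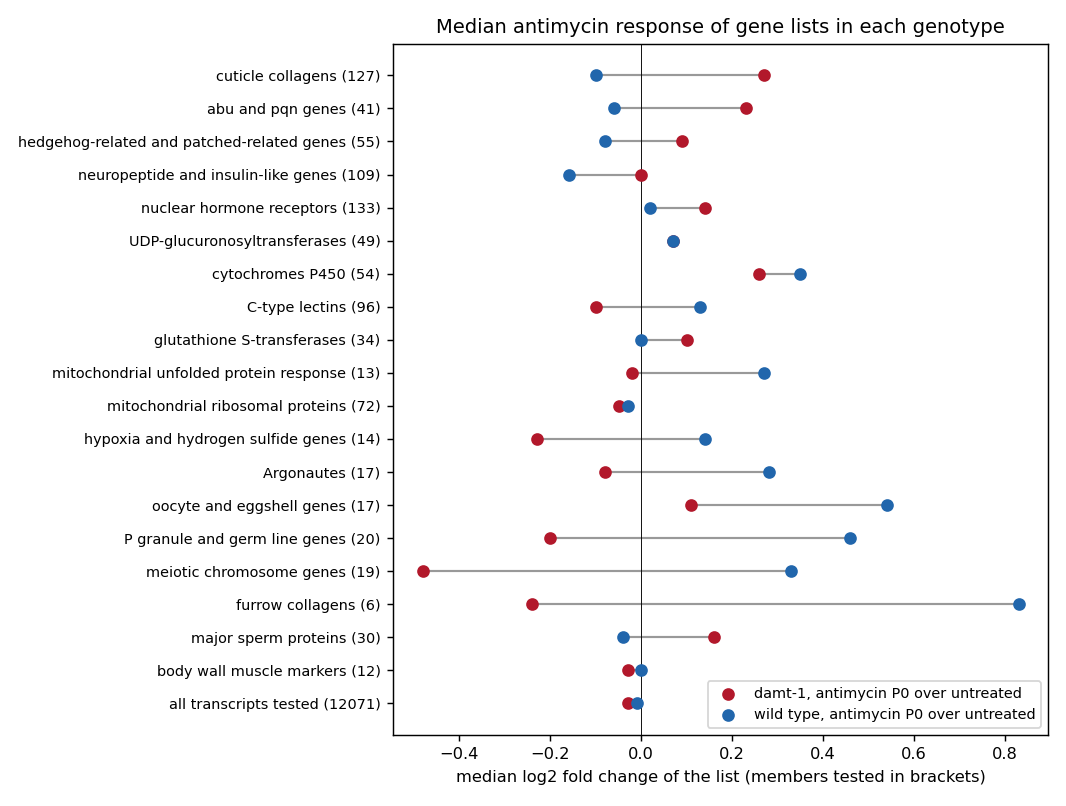
Median log2 fold change on antimycin A of 19 gene lists and of all 12071 transcripts, in damt-1 (red) and in wild type (blue), with the number of members tested in brackets. The grey line joins the genotypes. Meiotic genes lie at -0.48 in damt-1 and 0.33 in wild type, cuticle collagens at 0.27 and -0.10, and body wall muscle markers close to 0 in both.

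The remaining lists are described by their counts, against 10.5% higher and 12.2% lower over all transcripts. Of 18 endoplasmic reticulum stress genes 3 were higher and 0 lower: the BiP gene hsp-4 with 0.23 ± 0.07 (adjusted p = 0.014), the choline kinase gene ckb-2 with 1.04 ± 0.10 (adjusted p = 3.1e-08) and the co-chaperone gene dnj-7 with 0.23 ± 0.06 (adjusted p = 0.0084). DESeq2 called neither hsp-4 (adjusted p = 0.17) nor dnj-7, and without the second treated wild type library hsp-4 had an adjusted p of 0.072. Of 10 cytosolic chaperones and heat shock genes 0 were called in edgeR's test and 0 in DESeq2's, with 1 at an unadjusted p under 0.05. Of 133 nuclear hormone receptors 19 were higher and 7 lower (7 and 2 in DESeq2), with a median of 0.10, and nhr-155 stood at 28.3 and 17 CPM in treated damt-1, 21.1 and 18.2 CPM in untreated damt-1, 33.6 and 42.8 CPM in treated wild type and 3.71 and 4.99 CPM in untreated wild type, with -2.90 ± 0.36 (adjusted p = 1.7e-06). Of 17 enzymes of DNA adenine and H3K4 methylation 1 was called, jmjd-2, a demethylase of other histone lysines, with 0.52 ± 0.13 (adjusted p = 0.0042), which DESeq2 did not call.

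Single genes with the strongest opposite or one-sided changes filled out the classes. The transcript hrg-11.2, listed by the authors as F28B4.3, stood at 631 and 632 CPM in treated damt-1, 1032 and 1033 CPM in untreated damt-1, 1450 and 1470 CPM in treated wild type and 975 and 955 CPM in untreated wild type, so that it fell in damt-1 and rose in wild type, with -1.31 ± 0.05 (adjusted p = 3.9e-15). The cadherin gene cdh-7 did likewise, with -2.40 ± 0.09 (adjusted p = 3.9e-15). Fallen in damt-1 alone were cyp-35A5, with -1.73 ± 0.25 (adjusted p = 1.6e-05), the linker histone gene hil-5, with -0.53 ± 0.08 (adjusted p = 2.7e-05), and clec-169, with -1.10 ± 0.17 (adjusted p = 2.8e-05). Fallen in wild type alone were Y18D10A.23, with 0.74 ± 0.08 (adjusted p = 1.3e-07), cln-3.3, with 0.66 ± 0.07 (adjusted p = 1.6e-07), and F59F5.7, with 0.67 ± 0.07 (adjusted p = 2.9e-07). Among those risen in both, T16G1.6 rose further in damt-1, with 2.13 ± 0.11 (adjusted p = 1e-12), and dpy-6, which encodes a mucin-like protein, rose further in wild type, with -1.73 ± 0.09 (adjusted p = 1.9e-12). Risen in damt-1 alone, Y47D7A.15 had 2.82 ± 0.09 (adjusted p = 3.5e-16).

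The same contrast can be formed for the generations labelled F1 and F2, whose treated libraries are set against the same untreated libraries as P0, so that the 3 values are not independent. The P0 values beside them come from the fit over 8 libraries. In a fit over all 16 libraries the interaction of col-19 was 9.21 ± 0.20 in F1 and 9.27 ± 0.20 in F2, beside 8.39 ± 0.21 in P0. For acs-2 it was -5.26 ± 0.15 in F1 and -5.32 ± 0.15 in F2, beside -5.20 ± 0.13. For ugt-1 it was 3.40 ± 0.11 in F1 and 3.44 ± 0.11 in F2, beside 3.52 ± 0.10. For hrde-1 it was -1.27 ± 0.07 in F1 and -1.12 ± 0.07 in F2, beside -0.99 ± 0.07. The eggshell gene cpg-1 had -0.17 ± 0.25 in F1 and -0.38 ± 0.26 in F2, beside 1.04 ± 0.27 in P0. For sod-3 the values were -2.95 ± 0.28 in F1 and -3.46 ± 0.29 in F2, beside -1.92 ± 0.34. Differences between generations were not tested.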

How the data were processed

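The authors deposited 6 tables of raw counts per RefSeq transcript, read as counts from their whole-number values. Each holds 2 untreated and 2 treated libraries of a genotype, and a transcript with 10 or fewer counts over the 4 libraries is not listed in it. The submitters' processing notes name the build ce10 and, with no role or order, DESeq2 1.20.0 in R 3.5.0, HTSeq 0.9.1, SAMtools 1.3.1, HISAT2 2.0.5 and Trimmomatic 0.35. Whether counting used strand and whether duplicate reads were removed is not given in the sources used here. The 24 per-sample columns of the deposited comparison tables were not used. Gene names and spliced lengths came from a RefSeq annotation of another build, with 11355 accessions matched by it, and no coordinates were taken from it.

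The tables of both genotypes for P0 were joined on the transcript accession (13288 transcripts for damt-1, 13556 for wild type, 12925 shared). In R 4.3.3 with edgeR 4.0.16, transcripts were kept by filterByExpr with a minimum count of 10, TMM factors were computed, and robust quasi-likelihood fits with 4 group means over 8 libraries were tested with Benjamini-Hochberg adjustment at 0.05. The common dispersion was 0.000449. Its square root, 2.12%, is the coefficient of variation between libraries of a group beyond counting noise, not their whole spread. Counts of the 2 libraries of a group differed by 1.37 to 1.49 times the sampling variance, more than sampling noise, and no library was taken as a duplicate deposit. This does not show separate cultures. The steps were also run on simulated counts, with a single dispersion for all transcripts and changes set only in well-counted ones. That run does not test the recovery of changes at few counts, or a spread that differs between transcripts. Intervals on ratios of few counts are 95% and cover counting error only, and the floor for a group at 0 is 3 counts over its 2 libraries.

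The members, the 48 gene lists and the alternatives were chosen with earlier results of these data known. The genes to name were col-19, vit-2, acs-2, cyp-14A4, gst-4, hsp-4, sod-3, hsp-60, hsp-6 and damt-1; the 10 largest calls in each direction with at least 10 CPM in some group, more than 3 counts in each group and no overlap between the genotypes' library differences; up to 4 calls with 3 or fewer counts in a group; the 3 calls with the smallest adjusted p in each class; and up to 4 members per list with the smallest adjusted p. Non-overlap used log2(CPM + 0.5). The alternatives were DESeq2 1.42.0, other scalings and filters, a replicate block, a fit over 16 libraries, a log2 limit of 1 and each library left out. Figures were drawn with matplotlib 3.10.9.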

Additional observations from a re-analysis of the deposited data

Results flagged for a closer look

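The interaction itself is a tested difference between the genotypes' responses, and it was called for 1270 transcripts in the higher and 1473 in the lower direction. Among the genes named, the genotypes' responses differed past the test in col-19 (8.39), col-88 (6.15), col-139 (6.0) and col-81 (5.98), which rose in damt-1 and fell in wild type. They differed in acs-2 (-5.20) and sod-3 (-1.92), which rose in wild type and were not called in damt-1, and in cyp-14A4 (-2.19), which rose in both and further in wild type. A fall in damt-1 and a rise in wild type stood behind col-176 (-2.57), cdh-7 (-2.40), hrg-11.2 (-1.31) and gst-4 (-0.46). The smallest was hsp-4 (0.23), which DESeq2 did not call. All are log2 differences of fold changes.

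Transcripts listed in a single genotype's P0 table could not enter the interaction: 363 were listed for damt-1 alone and 631 for wild type alone, and 8 and 10 of these had at least 100 counts. A transcript not listed in a table had 10 or fewer counts over its 4 libraries. Treated counts were more than 2 times the untreated ones in 4 such transcripts of each genotype, and the difference from the other genotype was not tested. For damt-1, F48G7.12 had 794 and 777 counts in treated against 1 and 3 in untreated worms, 1571 treated counts in all. The gene W08E12.2 had 82 and 82 counts in treated against 0 and 1 in untreated damt-1 (164 treated counts). An invertebrate lysozyme gene, ilys-2, had 75 and 62 counts against 2 and 1 (137 treated counts), and the cytochrome P450 gene cyp-13A4 had 53 and 36 against 13 and 15 (89 treated counts). For wild type, F22B3.7 had 472 and 478 counts in treated against 0 and 0 in untreated worms, 950 treated counts in all. The collagen gene col-143 had 84 and 102 counts in treated against 0 and 1 in untreated wild type (186 treated counts). Another P450 gene, cyp-35B2, had 85 and 98 counts against 12 and 12 (183 treated counts), and the collagen gene col-158 had 61 and 52 against 8 and 7 (113 treated counts).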

How the results depend on the processing

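Higher and lower interactions numbered 706 and 790 with DESeq2's Wald test and 500 and 528 at a log2 difference of at least 1. The risen and fallen transcripts of damt-1 numbered 588 and 287 with DESeq2 and 384 and 93 at that limit, and those of wild type 787 and 380, and 351 and 90. With each library left out in turn, the interactions ran from 1091 to 1218 higher and 1168 to 1357 lower, the calls of damt-1 from 746 to 1076 risen and 477 to 884 fallen, and those of wild type from 1047 to 1556 risen and 727 to 1113 fallen. The cause of these shifts was not tested, beyond the fewer libraries in the fits. The counts under the other scalings and filters lay within 1.5 times the values reported. Of the 2743 interactions called, 54.5% were called again by DESeq2 and 80% to 84% without a library, and 0 were called in the opposite direction under any alternative. Over 221 named genes and all alternatives, 3566 of 3748 values kept their direction and side of the threshold, 159 lost their call, 23 gained one and 0 turned direction. The median interaction over all transcripts ran from -0.026 to 0.009. The replicate numbers of the tables did not pair the libraries (correlations of deviations -0.0386 to 0.0376), and with a replicate block the interactions numbered 1281 higher and 1480 lower, those of damt-1 961 and 824 and those of wild type 1510 and 1101. Sizes differed with how densely a transcript was counted: of 2222 transcripts with at least 0.5 counts per nucleotide in a library 26.1% were called, with a median size of 0.46, against 22% and 0.87 for the others. In all 8 libraries the highest count lay between 9873 and 10300, and hsp-6 reached 1.24 counts per nucleotide. Whether duplicate reads were removed is not given in the sources used here, and its part in these sizes was not tested.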

Other observations

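Genes of central carbon metabolism are given against 10.5% higher and 12.2% lower interactions over all transcripts. Of 35 genes of glycolysis, the citric acid cycle and the glyoxylate shunt, 0 had a higher and 7 a lower interaction, with a median of -0.12, although DESeq2 called 0 of them and 10 had an unadjusted p under 0.05. In damt-1 0 of the 35 were called on treatment by edgeR and 0 by DESeq2, with 3 at an unadjusted p under 0.05, and in wild type 5 rose and 0 fell. Over all transcripts edgeR called 14.9% in damt-1, and in wild type 12.5% rose and 9.2% fell. The aldolase gene aldo-1 stood at 366 and 382 CPM in treated damt-1, 363 and 345 CPM in untreated damt-1, 434 and 407 CPM in treated wild type and 341 and 331 CPM in untreated wild type, with an interaction of -0.24 ± 0.06 (adjusted p = 0.008) in edgeR's test. The glyceraldehyde-3-phosphate dehydrogenase gene gpd-4 had -0.77 ± 0.20 (adjusted p = 0.0064), and reads may be split between it and close copies.

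The other families are described by their counts, against 10.5% higher and 12.2% lower over all transcripts. Of 31 ABC transporters 5 were higher and 6 lower, and the P-glycoprotein genes pgp-10 and pgp-11 had interactions of -1.60 ± 0.18 (adjusted p = 5.4e-07) and -1.61 ± 0.17 (adjusted p = 1.7e-07) in edgeR's test, opposite to pgp-9. Of 14 superoxide dismutases, catalases and peroxiredoxins 2 were higher and 2 lower, and the thioredoxin gene trx-3 stood at 93.2 and 90.5 CPM in treated damt-1, 38.3 and 39 CPM in untreated damt-1, 109 and 111 CPM in treated wild type and 141 and 129 CPM in untreated wild type, with 1.54 ± 0.11 (adjusted p = 2.8e-10). Of 36 lysozymes, saposin-like and antimicrobial peptide genes 2 were higher and 3 lower, and spp-24, a saposin-like gene, stood at 17.2 and 16.7 CPM in treated damt-1, 13.1 and 18.5 CPM in untreated damt-1, 17.1 and 16.8 CPM in treated wild type and 2.12 and 2.14 CPM in untreated wild type, with -2.88 ± 0.40 (adjusted p = 8.1e-06). Of 43 transthyretin-like genes 2 were higher and 1 lower, and ttr-26 and ttr-14 had -2.55 ± 0.23 (adjusted p = 1.9e-08) and 1.17 ± 0.11 (adjusted p = 2.2e-08). Of 14 basement membrane genes 2 were higher and 2 lower (0 and 1 in DESeq2), and the laminin gene lam-3 stood at 27.8 and 33.7 CPM in treated damt-1, 61.9 and 66.4 CPM in untreated damt-1, 30 and 47.8 CPM in treated wild type and 14.8 and 15.9 CPM in untreated wild type, with -2.41 ± 0.25 (adjusted p = 1.1e-07). Of 108 F-box genes 10 were higher and 11 lower (3 and 3 in DESeq2). Of 5 chitinase-like genes 1 was lower and 0 higher, chil-22 with -2.14 ± 0.31 (adjusted p = 1.3e-05). Of 29 histone genes, many of them near-identical copies, 1 was lower and 0 higher in edgeR's test, DESeq2 called 0, and 1 had an unadjusted p under 0.05.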
